A study of Mus musculus with 12 samples.

Results

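Ier3 is the single gene described here, taken as the row with the probe name Ier3 among 754 probes for endogenous and reference genes on a NanoString panel of myeloid innate immunity transcripts, and it was 1 of 496 probes that passed a background filter and were tested. Bone marrow-derived mast cells (BMMCs), cultures of mast cells grown in vitro from mouse bone marrow, came from 3 mice and were transfected in 4 groups of 3 samples each. The replicate number of a sample was read as its mouse, since the headers of the count table repeat 1 code per number in all 4 groups. The groups were si12C, an siRNA mixture against Zc3h12c (encoding Regnase-3), si12A, a mixture against Zc3h12a (encoding Regnase-1), si12A+C, both mixtures combined, and siGLO, a fluorescent transfection control siRNA. All 12 samples, siGLO included, were electroporated, and 48 h later they were activated through IgE and its antigen, with RNA taken 2 h after that, so no resting cells entered the comparison, and strain, sex and age of the mice are not in the labels. The question was how depletion of either ribonuclease, alone or combined, left the level of Ier3 mRNA in activated mast cells.

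Ier3 (immediate early response 3, also known as IEX-1 and, in the mouse, gly96) is an early response gene, transcribed within a short time of stimulation by growth factors, cytokines or stress, with NF-kB among the factors known to induce it. Its protein is known to bear on cell survival and apoptosis and to act in the ERK branch of MAP kinase signalling. Regnase-1 and Regnase-3 are related endoribonucleases with a CCCH zinc finger, and Regnase-1 is known to cut stem-loops in the mRNAs of inflammatory mediators and so to shorten their lifetime. Mast cells that bind antigen through IgE on their surface transcribe cytokines and early response genes within hours, which is when such mRNA decay comes into play.

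Each mixture held 4 siRNAs, shown here because they are the only difference in treatment between the groups. Each was 19 bases long, as listed in the study's materials from 5′ to 3′, and no base is capitalised because no part of them was analysed further. The mixture against Zc3h12c, a gene on chromosome 9, held these sequences.
si12C siRNA 1: gcccaagtctggataattt
si12C siRNA 2: gcacttaagttaggttatt
si12C siRNA 3: gcactacacctttaagcaa
si12C siRNA 4: ggatattattccatgttga
The mixture against Zc3h12a, on chromosome 4, held these.
si12A siRNA 1: gcagagatcctgtcttaca
si12A siRNA 2: gagcgaggccacacagata
si12A siRNA 3: gaaatgtacgtatggaatc
si12A siRNA 4: gaaagggctggtgtatata

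Neither Zc3h12a nor Zc3h12c had a probe on the panel (0 probes), so the depletion itself could not be checked in these counts. Total counts over the 754 gene probes ran between 439015 and 795758 per sample. All 8 mast cell markers, Kit and Fcer1a among them, were above background, with a summed level between 131198 and 210235 scaled counts per sample. Against siGLO that level differed by a mean of 0.004 in si12C, -0.11 in si12A and -0.16 in si12A+C (log2). It was higher than siGLO in 1, 0 and 1 of 3 mice. Of 12 macrophage and monocyte markers 4 were above background, while Csf1r, Cd14, Ccr2 and the C1q genes were not. The summed level of all 12 was between 259 and 370 scaled counts in si12C samples, between 246 and 278 in si12A, between 251 and 334 in si12A+C, and between 307 and 435 in siGLO, and in all 3 depletions it was below siGLO in 3 of 3 mice. The summed level of 7 lymphocyte markers, of which 2 were above background, was also below siGLO in 3 of 3 mice in all 3 depletions. Its mean log2 difference was -0.05 in si12C, -0.34 in si12A and -0.21 in si12A+C. The neutrophil, eosinophil and dendritic cell lists had 2 detected markers each, and their sums were mixed over mice. In that order they were above siGLO in 2, 1 and 2 of 3 mice in si12C, 1, 1 and 1 in si12A, and 1, 2 and 1 in si12A+C. A sum that includes markers below background, as in all lists but the mast cell one, holds background counts too. The part of these cells in the Ier3 values was not tested, and in bulk RNA a change in the number of a kind of cell and in its RNA per cell cannot be told apart.

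Ier3 was well measured. The probe, whose target NM_133662.2 is the RefSeq transcript of Ier3 on chromosome 17, gave 7776, 6686 and 6227 raw counts in si12C samples of mice 1, 2 and 3. It gave 5851, 5960 and 5736 raw counts in si12A samples, 4724, 4460 and 6644 in si12A+C samples, and 4664, 3759 and 3659 in siGLO samples. The si12C counts lay above every siGLO count, and so did those of si12A, while the groups si12A+C and siGLO overlapped in raw counts. Each count was between 187 and 385 times the background threshold of its own library (mean plus 2 SD of the negative controls), and its 95% exact Poisson interval reached about 2.23 to 3.25% to either side, which covers counting error only. Ier3 alone took 1.10 ± 0.15% of the gene counts in si12C, 0.792 ± 0.066% in si12A, 0.817 ± 0.061% in si12A+C and 0.724 ± 0.117% in siGLO (SD, n = 3 each).

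Libraries differed in depth, so counts were scaled by TMM (trimmed mean of M-values, which sets the bulk of the probes equal between libraries). Ier3 then stood at 6764, 9524 and 5753 scaled counts in si12C of mice 1, 2 and 3, with a mean of 7347 ± 1952 (SD, n = 3). The si12A samples had 4931, 6782 and 4216 scaled counts, a mean of 5310 ± 1324. In si12A+C the values were 5011, 5811 and 5314, a mean of 5379 ± 404. The siGLO samples had 4278, 5909 and 3840 scaled counts, a mean of 4676 ± 1091. Taken over mice, no group was separate from another, since siGLO of mouse 2 lay above si12C of mouse 3. Within each mouse si12C was the highest of the 4 samples, in 3 of 3 mice. That pattern held for 20 of the 496 probes, or 4.03%, and is given as a description, since Ier3 was selected on this contrast.

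**Figure D1:**
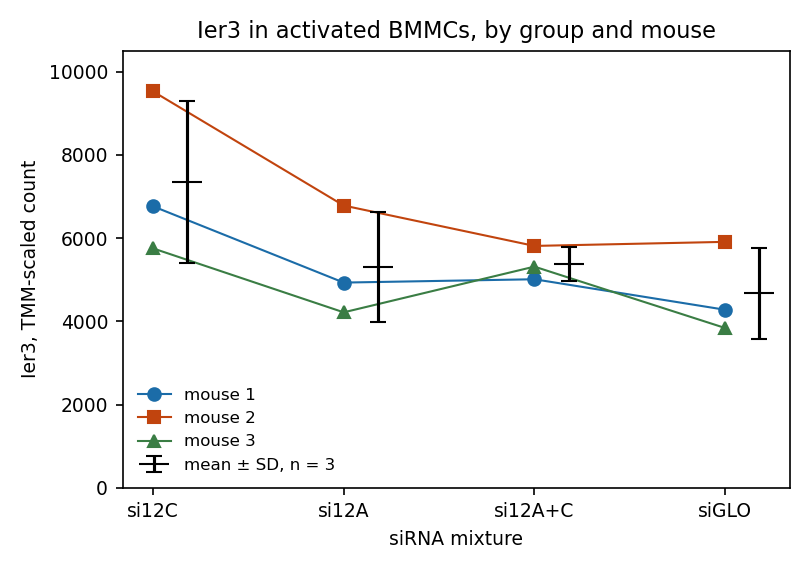
TMM-scaled counts of Ier3 (y axis) in the 4 groups (x axis), with 1 point per sample, lines joining the samples of each mouse, and bars beside them for the mean ± SD of 3 mice. The si12C point is the top of each mouse's line, at 6764, 9524 and 5753, and mouse 2 lies above the other mice in every group.

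Below si12C the order of the groups was not the same in each mouse. Mice 1 and 3 had si12C first, then si12A+C, si12A and siGLO, whereas mouse 2 had si12C, si12A, siGLO and then si12A+C. The neighbours si12A+C and si12A, with means of 5379 and 5310 scaled counts, did not differ beyond their spread, and the difference between them was 0.02, -0.22 and 0.33 on the log2 scale in mice 1, 2 and 3. The neighbours si12A and siGLO were less far apart than the SD of either group over mice, although si12A was the higher in 3 of 3 mice.

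Taken mouse by mouse, Ier3 was higher in si12C than in siGLO by 0.66, 0.69 and 0.58 on the log2 scale in mice 1, 2 and 3, a mean of 0.64 ± 0.05 (SD, n = 3), or 1.56-fold. For si12A against siGLO the log2 differences were 0.20, 0.20 and 0.13, a mean of 0.18 ± 0.04. For si12A+C against siGLO they were 0.23, -0.02 and 0.47, a mean of 0.22 ± 0.25. The first pair of comparisons thus had nearly the same value in each mouse, while the combined depletion ranged from no rise in mouse 2 to its highest value in mouse 3. Since the 3 comparisons share the siGLO samples, their values are given side by side only.

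In the edgeR quasi-likelihood fit over all 12 samples the log2 fold change of Ier3 was 0.65 ± 0.24 in si12C against siGLO (± SE), 0.18 ± 0.24 in si12A and 0.20 ± 0.24 in si12A+C. Blocking on the mouse gave 0.65 ± 0.11, 0.18 ± 0.11 and 0.23 ± 0.11. Without the block the si12C value was 0.42 when si12C of mouse 2 was left out, and with the block it stayed between 0.58 and 0.71 over all samples left out in turn. Ier3 ranked 4th by fold change among the 496 probes in si12C against siGLO with the block. A gene counted as called where its Benjamini-Hochberg adjusted p did not exceed 0.05 and its log2 fold change passed 0.5 in size. Without the block edgeR called none of the 496 probes in any comparison against siGLO (0%), and limma none. DESeq2 called 0 in si12C, 1 in si12A and 3 in si12A+C, all lower. At an unadjusted p under 0.05 edgeR had 1 probe higher and 1 lower in si12C, 9 and 29 in si12A, and 14 and 19 in si12A+C. With the block 2 probes rose in si12C, which is 0.403% of those tested, and 0% fell (12 lower at an unadjusted p under 0.05, 0 by DESeq2 or limma). Ier3 was 1 of these 2 and was chosen for it, so no p is given for its own contrasts. The other was Tnf, encoding the cytokine TNF, at 0.79 ± 0.15 in the blocked fit. Next in order of adjusted p in the same fit, and not called, were Ccl5, a chemokine (0.72 ± 0.18), Il2, a T cell growth factor that mast cells can also make (1.03 ± 0.26), and Tgm2, a protein cross-linking enzyme (0.58 ± 0.14), each at an adjusted p of 0.15 (edgeR).

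Setting the depletions against each other, Ier3 in si12A+C was lower than in si12C by 0.43, 0.71 and 0.11 in mice 1, 2 and 3, with a fitted log2 fold change of -0.45 ± 0.24, or -0.41 ± 0.11 with the block. In si12A it was lower than in si12C by 0.46, 0.49 and 0.45, with a fitted value of -0.47 ± 0.24. Against si12A the combined depletion differed by 0.02 ± 0.24. The interaction, the difference of si12A+C from what the single depletions would add up to on the log2 scale, was -0.63 ± 0.34, or -0.59 ± 0.16 with the block, and below 0 in 3 of 3 mice at -0.64, -0.91 and -0.25. Without si12C of mouse 2 the unblocked values were -0.40 for the interaction and -0.22 for si12A+C against si12C. These comparisons recombine the groups on which the gene was selected, and they are given with no test.

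How far Ier3 stood apart in si12C from the other depletions turned on the scaling of the counts. Scaled on the 6 reference genes with at least 100 counts in every sample, Ier3 was at 5524 to 7450 scaled counts in si12C, 4967 to 7387 in si12A, 5830 to 6063 in si12A+C and 3731 to 4332 in siGLO, so that all 3 depletion groups lay above siGLO with no overlap. The log2 fold changes against siGLO were then 0.64 ± 0.18, 0.52 ± 0.18 and 0.54 ± 0.18 for si12C, si12A and si12A+C (± SE). On this scale the median of all 496 probes also stood at 0.32 in si12A and 0.31 in si12A+C, but at -0.03 in si12C. Scaled on the positive controls, synthetic targets added in fixed amounts, the fold change of Ier3 was 0.58 in si12C, -0.25 in si12A and 0.13 in si12A+C, and the medians of all probes were -0.08, -0.37 and -0.06. The geometric mean of the positive controls was itself 579 to 643 counts in si12A and 249 to 500 in siGLO. Relative to the median of all probes Ier3 lay at 0.65 to 0.67 in si12C and at 0.12 to 0.20 in si12A under the 5 scalings shown. A scaling shifts all probes of a sample alike, so these ranges are narrow by construction and are no support. Before the median was taken off, the value of Ier3 in si12A changed sign between scalings.

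**Figure D2:**
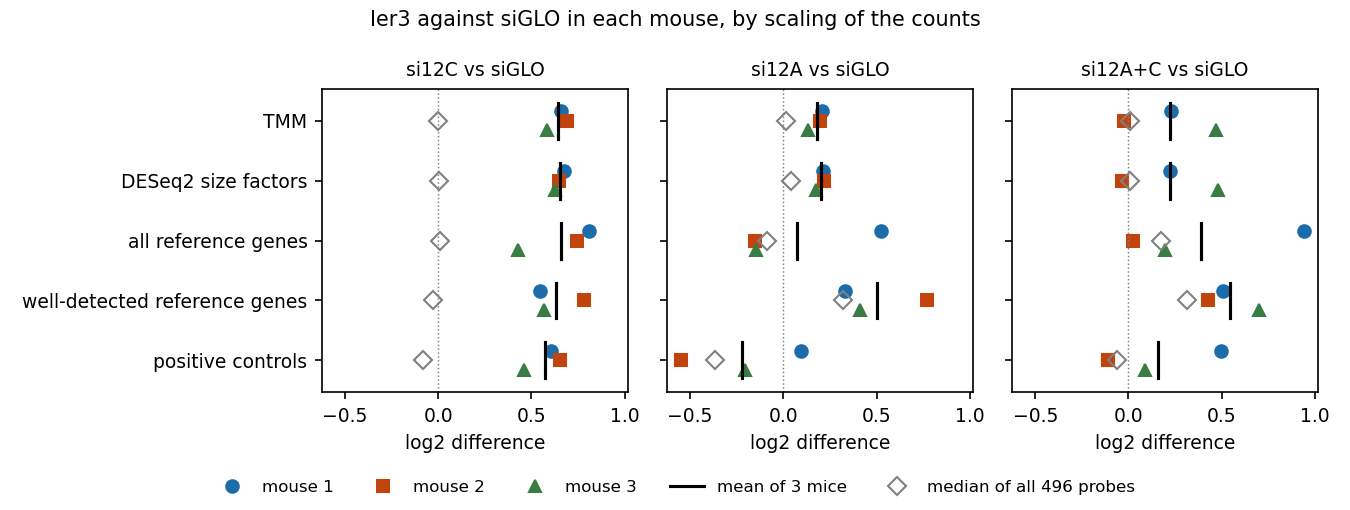
Log2 difference of Ier3 from siGLO (x axis) in each mouse under 5 ways of scaling the counts (y axis), with a panel for si12C, si12A and si12A+C; symbols are mice, black lines the mean of 3 mice and open diamonds the fitted median of all 496 probes. In si12C, the contrast on which Ier3 was selected, all 15 points lie above 0 while the medians stay near 0. In si12A the mean runs between -0.22 and 0.50 and the diamonds move with it.

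The ratio of Ier3 to each of the 6 well-detected reference genes was higher in si12C than in siGLO in 18 of 18 pairs of gene and mouse, with a mean log2 difference between 0.51 over Eef1g, a translation elongation factor subunit, and 0.74 over Sf3a3, a splicing factor subunit. In si12A it was higher in 18 of 18 pairs too, between 0.17 over Rpl19, a ribosomal protein, and 0.72 over Sf3a3. In si12A+C it was higher in 16 of 18, between 0.26 over Rpl19 and 1.02 over Tubb5, a tubulin. These pairs reuse the same 3 mice and, for si12C, the contrast on which Ier3 was selected, so the counts are a description. The log2 values that the authors deposited, in which the mouse means of Ier3 lay within 0.025 of each other, gave Ier3 as 13.43, 13.54 and 13.45 in si12C, 12.98, 13.02 and 12.95 in si12A, 13.09, 12.92 and 13.22 in si12A+C, and 12.83, 12.95 and 12.77 in siGLO. On that scale si12C overlapped with no other group.

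The difference between mice was not used to choose Ier3 and could be tested. Averaged over the 4 groups, Ier3 stood at 5246, 7007 and 4781 scaled counts in mice 1, 2 and 3, and mouse 2 was the highest in every group. Between the highest and the lowest mouse lay 0.54 on the log2 scale, which passed edgeR's quasi-likelihood test with group as the other term (adjusted p = 0.000814). Of the 496 probes 286, or 57.7%, differed between mice at an adjusted p of at most 0.05, and Ier3 ranked 112th by p, so it was no exception in this. The call was lost on the well-detected reference genes, where the range was 0.30 (adjusted p = 0.104), and without mouse 2, where it was 0.14 (adjusted p = 0.173).

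The probes with a profile most like that of Ier3 were sought by Pearson's r over the 12 samples, on log2 CPM (scaled counts taken relative to library size) with the mean of each mouse taken off. The points share libraries, scaling and the control group, and the coefficients are a description. The highest were Tgm2 (r = 0.87), Nmb, which encodes the peptide neuromedin B (0.81), Slc16a6, a member of the monocarboxylate transporter family (0.79), H2-Ob, a chain of the class II accessory molecule DO (0.77), and the chemokine gene Ccl5 (0.73). Also among the 10 highest were Nampt, an enzyme of NAD salvage (0.69), the secreted protease gene Adamts1 (0.66), the transcription factor gene Ikzf1 (0.65) and Map2k2, a kinase that activates ERK (0.64). None of the 10 was called by edgeR in any comparison against siGLO, with or without the block, nor by DESeq2 or limma, and at an unadjusted p under 0.05 there were 0 without the block and 6 with it. The 10 were picked for following Ier3 over these same samples, so the 6 are no support. Over all 496 probes 18 were higher and 12 lower at that p with the block in si12C, 71 and 76 in si12A, and 49 and 53 in si12A+C.

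Tgm2, at the top of this order, had 418, 61.3 and 295 scaled counts in si12C of mice 1, 2 and 3, 299, 31.9 and 254 in si12A, 270, 35.2 and 251 in si12A+C, and 281, 33.0 and 215 in siGLO. Here mouse 2 was the lowest, not the highest, so that the likeness to Ier3 holds within mice and turns to r = -0.49 where the mouse means are left in. Nmb had 761, 934 and 663 scaled counts in si12C, 726, 806 and 634 in si12A, 621, 801 and 686 in si12A+C, and 637, 678 and 566 in siGLO, and like Ier3 it was high in mouse 2. The lowest coefficients were those of Cdh11, an adhesion molecule (r = -0.81), the chemokine gene Cxcl14 (-0.78) and Skil, a repressor of SMAD signalling (-0.78). Cdh11 passed the background threshold in only 3 of the 12 samples and Cxcl14 in 8, with a lowest raw count of 4 for Cxcl14. Over all 495 other probes 29 had r above 0.5 and 25 had r below -0.5. Tnf came 30th, at 0.50.

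**Figure D3:**
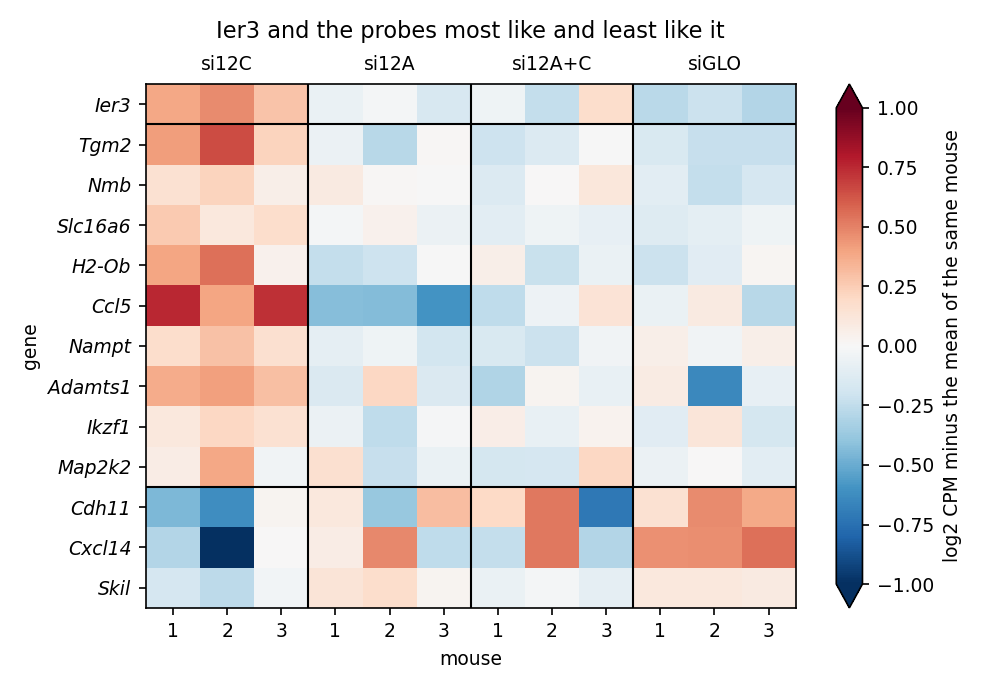
Log2 CPM minus the mean of the same mouse (colour, red above and blue below that mean) for Ier3, 9 of the 10 probes most like it and the 3 least like it (rows), in the 3 mice of each group (columns). Ier3 is red in all 3 si12C samples and blue in all 3 siGLO samples; Tgm2 has the same pattern.

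Tnf, the other gene called in si12C, can be set beside Ier3 in the remaining groups. It had 6781, 13303 and 5406 scaled counts in si12C, 5126, 19316 and 4275 in si12A, 6771, 18457 and 6583 in si12A+C, and 3202, 9401 and 3238 in siGLO. All 3 depletions lay above siGLO in 3 of 3 mice, with blocked log2 fold changes of 0.79 ± 0.15, 0.72 ± 0.15 and 1.03 ± 0.15, against 0.65 ± 0.11, 0.18 ± 0.11 and 0.23 ± 0.11 for Ier3. Whether the profiles of the genes differ was not tested.

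Around Ier3, 5 lists covered the pathways it is known for, and of their 79 genes 69 were above background and tested, Ier3 itself left out. In si12C against siGLO none of the 69 was called by edgeR, with or without the block, nor by DESeq2 or limma on the counts, and at an unadjusted p under 0.05 there were 0 without the block and, with it, 5 higher and 1 lower. Without the block edgeR called 0 of the 69 in si12A and si12A+C as well, with 3 higher and 2 lower in si12A and 6 higher in si12A+C at an unadjusted p under 0.05. The median log2 fold change of the 69 was 0.01, beside 0.00 for all probes tested. In si12A against siGLO 3 genes rose and 1 fell with the block, where 1.81% of all probes rose and 3.63% fell. For si12A+C, 8 rose with the block, where 3.43% of all probes rose, and DESeq2 and limma with the block called 6 and 8 higher. No list gene was called lower there (0 by edgeR, DESeq2 or limma with the block, and 2 lower at an unadjusted p under 0.05), where 2.62% of all probes fell. The direction of the calls in si12A depended on the scaling, since with the block 0 list genes were higher and 8 lower on the positive controls, while scaling on the well-detected reference genes gave 30 higher and none lower (0). In si12A+C 3 and 15 were called on these scales, all higher. The list medians were 0.22 and 0.05 in these comparisons, beside 0.02 and 0.01 for all probes tested.

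The list nearest to Ier3 in the size of its si12C values was that of known Regnase-1 targets, mRNAs that Regnase-1 is known to cut. Tnf, which the study reports as directly targeted by both Regnases, was not in this list. It was called higher with the block in si12C, si12A and si12A+C, so the counts below hold for the list without it. Of 5 tested members of 8 edgeR called none in si12C (0 at an unadjusted p under 0.05, or 3 with the block, and 0 by DESeq2 or limma), and all 5 lay above 0, with a median log2 fold change of 0.53. Il2 had 1049, 1430 and 634 scaled counts in si12C and 547, 838 and 231 in siGLO (0.95 ± 0.61, SE). Il1b, a pyrogenic cytokine, had 200.1, 224 and 315 in si12C and 149.5, 130.5 and 195 in siGLO (0.63 ± 0.32). Both were above siGLO in 3 of 3 mice, as were Nfkbiz, encoding an atypical IkB protein (0.53 ± 0.41), and Ptgs2, encoding cyclooxygenase-2 (0.37 ± 0.33). Il6 was 0.07 ± 0.19. In si12A edgeR called none of the 5, with 2 at an unadjusted p under 0.05 in the blocked fit, 2 called by DESeq2 with the block and 0 by limma. In si12A+C Ier3 stood at 0.23 ± 0.11 with the block. Nfkbiz, Il2 and Il1b rose there in the same fit by 1.23 ± 0.19, 1.60 ± 0.26 and 0.80 ± 0.18 (edgeR adjusted p = 0.00303, 0.00303 and 0.0195). That is 3 of the 5, beside 3.43% of all probes, in a list chosen with earlier results of these data known.

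Of the 28 early response genes, all tested, edgeR called none in si12C, where 1 higher and 1 lower had an unadjusted p under 0.05 with the block and DESeq2 and limma called 0, with a median of 0.00 and 14 of 28 above 0. On the TMM scale their values in si12A had a median of 0.41, with 22 of 28 above 0. Btg2, an antiproliferative gene, had 333, 365 and 234 scaled counts in si12A and 184, 116 and 173 in siGLO, and rose with the block by 0.94 ± 0.20 (edgeR adjusted p = 0.0157). Dusp1, a phosphatase of MAP kinases, rose by 0.77 ± 0.13 (adjusted p = 0.00724) and the orphan nuclear receptor gene Nr4a2 by 0.57 ± 0.15 (adjusted p = 0.0444). The genes called higher in si12A were 3 of 28, beside 1.81% of all probes. On the positive controls none of these rises in si12A was called with the block (0 list genes higher, 8 lower). In si12A+C the genes called were Btg2 (0.81 ± 0.20, adjusted p = 0.0257) and Rgs1, a regulator of G protein signalling (0.59 ± 0.14, adjusted p = 0.0209), which is 2 of 28 beside 3.43% of all probes.

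**Figure D4:**
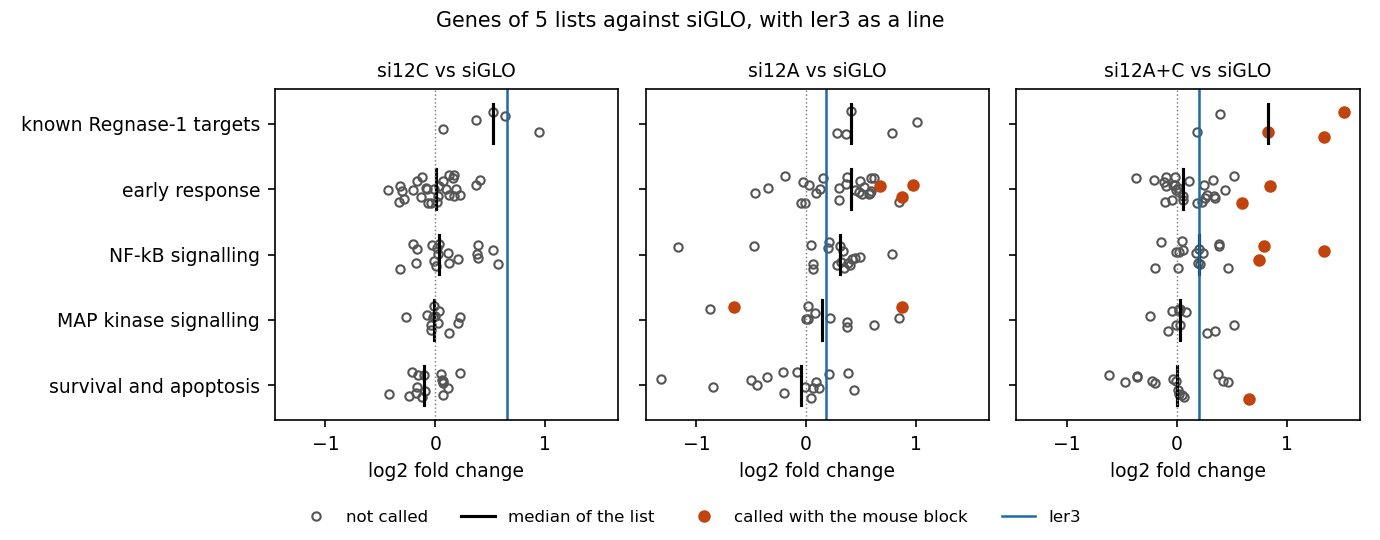
Log2 fold change against siGLO in the fit without a block (x axis) of the tested genes in 5 lists (y axis), in a panel each for si12C, si12A and si12A+C. Open circles were not called, filled circles were called with the mouse as a block, black bars are list medians and the blue line is Ier3, at 0.65, 0.18 and 0.20, which was selected on its si12C value; the list medians in si12C lie between -0.10 and 0.03, except for the known Regnase-1 targets, at 0.53.

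NF-kB signalling, which includes feedback inhibitors and adaptors, had 18 of 22 genes tested and none called in si12C by edgeR, DESeq2 or limma, with 2 at an unadjusted p under 0.05 in the blocked fit and a median of 0.03. In si12A edgeR and limma called none, DESeq2 with the block 1, and 7 higher and 1 lower had an unadjusted p under 0.05 with the block. The median there was 0.31. In si12A+C DESeq2 with the block called 1 and limma 3, and edgeR with the block called 3 of the 18 higher, beside 3.43% of all probes. These were Nfkbiz, which is in the list of known Regnase-1 targets too, Traf1, an adaptor of TNF receptors (0.76 ± 0.19, adjusted p = 0.0262), and Map3k14, the kinase NIK of the alternative pathway (0.76 ± 0.20, adjusted p = 0.0354, edgeR). Map3k14 was low in count, at 40.0, 19.9 and 54.5 in si12C, 47.7, 26.1 and 56.0 in si12A+C, and in siGLO 33.0, 12.6 and 30.4.

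For MAP kinase signalling 12 of 15 genes were tested, and the median was -0.01 in si12C, where no gene was called or had an unadjusted p under 0.05 (0 by edgeR, DESeq2 and limma), and 0.15 in si12A. In si12A 10 of the 12 lay above 0. With the block edgeR called 1 of the 12 higher there, Dusp1 as given above, and 1 lower, beside 1.81% and 3.63% of all probes. The lower one was Hras, a small GTPase upstream of ERK, with 124, 109 and 129 scaled counts in si12A and 152, 239 and 180.5 in siGLO. It fell by 0.62 ± 0.17 (edgeR adjusted p = 0.0476), a call not made on the well-detected reference genes, where 0 list genes were lower. Of the 16 tested survival and apoptosis genes of 17, edgeR called none in si12C (0 at an unadjusted p under 0.05 with or without the block) and none in si12A (2 higher and 3 lower with the block). DESeq2 and limma each called 1 lower there with the block, beside 20 and 19 of all 496 probes. In si12A+C Sesn1, a stress-induced gene known as a p53 target, rose with the block by 0.64 ± 0.16 (edgeR adjusted p = 0.0257). That is 1 of the 16, beside 3.43% of all probes, and is no result about the list. The median of the 16 was -0.10 in si12C.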

How the data were processed

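The authors deposited raw probe counts for 12 samples, read on an nCounter SPRINT Profiler from 50 ng of RNA without amplification, for 734 endogenous and 20 reference genes, 8 negative and 6 positive controls. The authors also deposited log2 values of 325 probes, which served as an alternative. The methods name nSolver and the Omics Playground platform, but how this table was filtered and scaled is not given in the sources used here. Ier3 and the gene lists were chosen with earlier results of these data known.

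A probe was tested if above the mean plus 2 SD of its library's negative controls in at least 3 samples, or if a reference gene, which kept 496. The fit was edgeR 4.0.16 under R 4.3.3, with TMM factors, a term per group and its quasi-likelihood F test, adjusted by Benjamini-Hochberg over all 496 probes. It held no block, since the methods name none, and was repeated with the replicate as a block. The series names 3 mice, the labels give replicate numbers, and the count headers repeat 1 code per number in all 4 groups, so numbers were read as mice. In 18 pairs of same-numbered samples the correlation of what was left after subtracting group means lay between 0.12 and 0.86. In 36 pairs with different numbers it lay between -0.74 and 0.63, so the ranges overlapped. Among samples of other groups, 12 of 12 libraries correlated best with one of their own number, so the numbers were taken to pair the samples. Scaled counts are TMM-scaled to the mean library of 650387 counts, and an SE is the absolute log2 fold change over the square root of F. Alternatives were DESeq2 1.42.0, limma 3.58.1, other scalings, no filter, subtraction of the negative controls and leaving out each of the 12 samples or 3 mice. The fitting steps were tested on simulated counts. Named genes were Ier3, Tnf, the 10 probes with the highest and 3 with the lowest r to Ier3, all tested known Regnase-1 targets, and up to 4 called genes per list and comparison. The 3 probes next in order of adjusted p in si12C are named as well. Of the 10 probes most like Ier3, 1 is not reported here by name or value. The marker lists describe the cultures only.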

Additional observations from a re-analysis of the deposited data

Results flagged for a closer look

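For 3 genes the log2 differences of si12C from siGLO and of si12A+C from si12A had opposite signs in 3 of 3 mice. They were among 82 list genes and named genes tested for this interaction. None of the 82 passed the test of the interaction, with a lowest adjusted p of 0.999 (edgeR) and 0.543 with the replicate block. Klf4, an early response transcription factor gene, had an interaction of 0.53 ± 0.35 (log2, SE), with 0.25 ± 0.25 in si12A+C against si12A and -0.28 ± 0.25 in si12C against siGLO. Klf4 was low in count, at 22.6, 21.4 and 21.2 scaled counts in si12C and 23.8, 25.2 and 30.4 in siGLO. It had 21.2, 24.8 and 36.0 in si12A+C and 19.4, 22.8 and 27.2 in si12A. Hras had an interaction of 0.46 ± 0.33, with 0.41 ± 0.23 for si12A+C against si12A and -0.04 ± 0.23 for si12C against siGLO. Slc16a6, 1 of the 10 probes most like Ier3, had an interaction of -0.34 ± 0.22, with -0.07 ± 0.16 for si12A+C against si12A and 0.27 ± 0.16 for si12C against siGLO. It was picked for its likeness to Ier3, whose own interaction was below 0, so its sign follows in part from that choice. The share of all probes with such opposite directions is not given, so the count of 3 is a description and no result about these genes. With 3 samples a group no test for a single distant sample was run.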

How the results depend on the processing

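Libraries from 3 mice per group and a shared control limit every comparison, and the scaling of the counts moved Ier3 more than counting error. Ier3 was selected on si12C against siGLO in these same samples, so what follows on that comparison is a description and no support. The direction of Ier3 in si12C against siGLO was kept under every alternative run. With the mouse as replicate block, which the pairing of the samples allows, its size there stayed at 0.65, and the block changed the list calls against siGLO to 4 in si12A and 8 in si12A+C, where the fit without it made 0. Without the block no list gene was called in any comparison under the count scalings, so the calls of list genes in the report rest on the block. The causes of the shifts below were not tested.

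Scaled on positive controls, the log2 fold change of Ier3 was 0.58 in si12C against siGLO (0.57 with the block), -0.25 in si12A against siGLO (-0.22), 0.38 in si12A+C against si12A (0.38), -0.83 in si12A against si12C (-0.79) and -0.20 for the interaction (-0.20), with 1, 8 and 3 list genes called with the block in si12C, si12A and si12A+C, of which the 8 in si12A were all lower and the others all higher. On all reference genes it was 0.040 in si12A against siGLO (0.065), 0.30 in si12A+C against si12A (0.32) and -0.64 in si12A against si12C (-0.59), with 1 list gene called in si12C and 4 in si12A+C with the block. On the well-detected reference genes it was 0.52 in si12A against siGLO (0.51), 0.54 in si12A+C against siGLO (0.55), -0.10 in si12A+C against si12C (-0.079) and -0.11 in si12A against si12C (-0.12), with 30 and 15 list genes called with the block in si12A and si12A+C, all higher, and the range between mice was 0.30 (adjusted p = 0.104, edgeR). The median of all probes moved between these scales too, so the counts of list genes cannot be read as a result about the lists.

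In si12A against si12C Ier3 was -0.45 with DESeq2 size factors and in DESeq2, -0.43 without the filter (-0.43 with the block) and -0.44 with negative controls subtracted (-0.44). In si12A against siGLO it was 0.22 without the filter (0.22 with the block) and 0.14 in the deposited log2 table under limma with or without the block. List genes called with the block in si12A and si12A+C numbered 7 and 8 with DESeq2 size factors, 9 and 6 in DESeq2, 5 and 8 in limma, 8 and 7 without the filter, and 2 and 7 with negative controls subtracted. The deposited table gave 3 in si12C, 9 in si12A and 8 in si12A+C, with or without the block, and a range between mice of 0.025 (adjusted p = 1, limma).

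Leaving out single samples or whole mice, with and without the block, moved Ier3 in si12C against siGLO between 0.42 (without si12C of mouse 2) and 0.86 (without siGLO of mouse 2), in si12A against siGLO between -0.032 (without si12A of mouse 2) and 0.39 (without siGLO of mouse 2), and in si12A against si12C between -0.68 and -0.24, while with the block the first of these stayed between 0.58 and 0.71. Over the same settings the interaction of Ier3 ran between -0.84 (without siGLO of mouse 2) and -0.40 (without si12C of mouse 2), si12A+C against si12C between -0.60 (without si12C of mouse 3) and -0.22 (without si12C of mouse 2), si12A+C against siGLO between 0.079 and 0.41, and si12A+C against si12A between -0.12 and 0.23. The number of list genes called ran between 0 and 2 in si12C, 0 and 19 in si12A and 0 and 8 in si12A+C, and the highest of si12C and si12A came without mouse 1. The range between mice ran between 0.14 (without mouse 2, adjusted p = 0.173, edgeR) and 0.65. Of the 10 probes most like Ier3, 5 were shared with the order by Spearman's rho, 3 without taking off mouse means, 6 on either set of reference genes, 8 on positive controls or in the deposited table, and 3 to 6 without a mouse.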
